A study of Homo sapiens with 8 samples.

Results

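The mitochondrial ribosomal protein genes were the protein-coding genes whose symbol starts with MRPL or MRPS followed by a number. The rule found 78 of the 58302 genes in the deposited tables, 49 with an MRPL symbol and 29 with an MRPS symbol. Their levels were followed by sequencing of poly(A)-selected RNA from SK-Hep1, an established human line derived from a liver tumour. SLC29A2 cells, which ectopically express the equilibrative nucleoside transporter SLC29A2, received sorafenib with dipyridamole, sorafenib alone, dipyridamole alone or a control treatment. Control cells, which carry no ectopic SLC29A2, received the same 4 treatments. Each of the 8 conditions had 1 library and no replicate, so each factor was read from 4 library pairs. The labels give no doses, treatment times or content of the control treatment, and do not say whether the SLC29A2 cells were 1 clone. Nothing in the labels says that the libraries came from separate cultures, so p-values measure only the spread between these 8 libraries.

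The mitochondrial ribosome translates the few proteins encoded by mitochondrial DNA, all of them subunits of the respiratory chain or the ATP synthase. Its ribosomal RNAs come from the mitochondrial genome, but all of its proteins are encoded in the nucleus, made in the cytosol and imported. Compared with bacterial ribosomes it holds many added proteins with no bacterial counterpart, and the symbols do not always name the subunit in which a protein sits. Sorafenib inhibits several kinases, among them RAF, and has been described as toxic to mitochondria. Dipyridamole inhibits nucleoside transport and phosphodiesterases.

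Library depth, inferred from the FPKM step of 1 read and not stated by the submitters, was 14.07 to 16.69 M reads. Recovered reads summed to slightly more than this total, as in control cells given the control treatment (16815717 against 16691622). SLC29A2 itself had 1477 to 3040 FPKM (read fragments per kilobase, with library depth divided out) in the SLC29A2 cells and 7.11 to 7.81 FPKM in control cells. This checks the cell type labels but not the drug labels. Of 6 hepatocyte markers, 5 stayed under 1 FPKM in every library, with ALB at most 0.111 FPKM, as did 3 of 3 leukocyte markers. Of the endothelial markers, PECAM1, CDH5, KDR and TEK stayed under 1 FPKM, VWF had 0.172 to 1.66 FPKM and CAV1 had 101 to 389 FPKM. The library of control cells given both drugs stood apart in composition, with a size factor (median ratio to the geometric mean library) of 1.21 against 0.925 to 1.03 in the others.

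All 78 members were expressed and passed the filter of a mean of at least 1 FPKM. Mean levels over the 8 libraries ran from 1.06 FPKM for MRPS24 to 159 FPKM for MRPL37, with a median of 33.2 FPKM and the middle of the distribution between 16.4 and 48.9 FPKM. The protein-coding genes that passed the same filter had a median of 19.95 FPKM (n = 11637). Behind these values stood between 10 and 23 recovered reads per library for MRPS24 and between 1818 and 4267 for MRPL37.

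The 4 members with the highest means were MRPL37, MRPL51, MRPL3 and MRPS34. MRPL37, a large subunit protein without a bacterial counterpart, averaged 159 ± 35.9 FPKM (SD, n = 8 libraries), with 119 FPKM in control cells given dipyridamole, its lowest library, and 238 FPKM in SLC29A2 cells given both drugs, its highest. MRPL51, also of the large subunit, averaged 129 ± 15.5 FPKM. MRPL3, the counterpart of the bacterial protein that reaches towards the peptidyl transferase centre, averaged 102 ± 9.89 FPKM, and MRPS34 of the small subunit averaged 92.8 ± 12.8 FPKM. The ranges over libraries overlapped between each pair of neighbours in this order.

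The 4 members with the lowest means were MRPS24 at 1.06 ± 0.365 FPKM, MRPL46 at 1.89 ± 0.418 FPKM, MRPS17 at 2.67 ± 0.76 FPKM and MRPL50 at 3.04 ± 0.79 FPKM (SD, n = 8 libraries each). The ranges of neighbours in this order overlapped as well.

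Members at the low end often shared sequence with another annotated gene. In 8 members over 50% of the coding bases also belonged, on the same strand, to the exons of another gene of the annotation, such as URGCP-MRPS24 for MRPS24 or CCDC142 for MRPL53. These were MRPS24 (92.2% of coding bases shared), MRPL46 (64.0%), MRPS17 (100%), MRPS28 (53.0%), MRPL12 (96.0%), MRPL38 (94.1%), MRPL53 (100%) and MRPL30 (95.3%). Their mean levels were 1.06 to 7.72 FPKM with a median of 4.56 FPKM, whereas the other 70 members ran from 3.04 to 159 FPKM with a median of 34.9 FPKM. Sharing over 50% of all exon bases held for MRPL12 alone (68.2%), and the coding share was chosen after the levels had been seen. HTSeq, named in the submitters' processing notes, can set aside reads that fall on more than 1 gene, but its settings are not stated and its part in these levels was not tested. Levels of these 8 members are therefore uncertain.

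**Figure D1:**
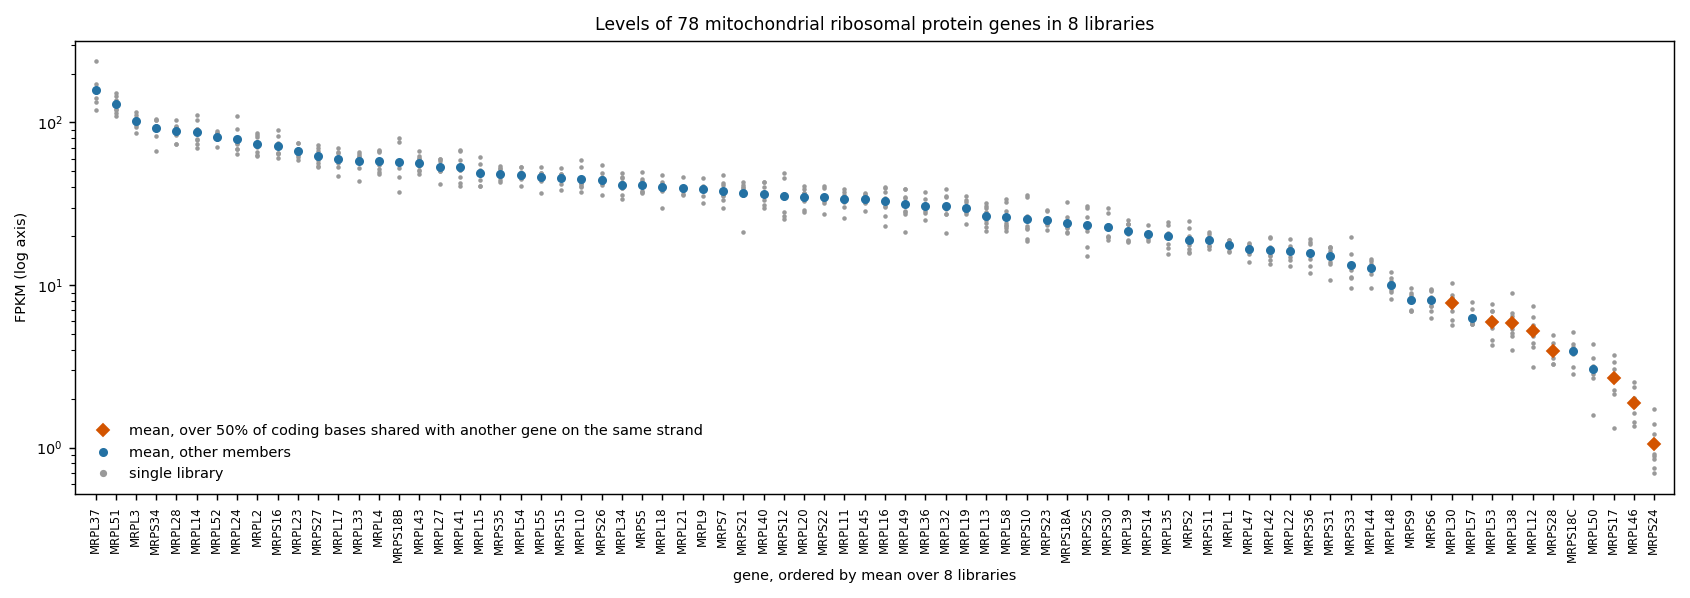
FPKM on a log axis for the 78 mitochondrial ribosomal protein genes, ordered by mean over 8 libraries, with a grey point for each library. Orange diamonds mark the means of the 8 members with over 50% of coding bases shared with another gene on the same strand, all at or under 7.72 FPKM, and blue circles mark the other 70.

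By role, the 30 large subunit proteins with a bacterial counterpart had a median level of 39.6 FPKM and the 21 large subunit proteins without one had 24.1 FPKM. In the small subunit the order was the other way, with 19.8 FPKM for the 16 proteins with a bacterial counterpart and 39.5 FPKM for the 10 without. These classes overlapped across most of their ranges. The medians include the 8 members of uncertain level. Of those, MRPS24, MRPS17 and MRPS28 are small subunit proteins with a bacterial counterpart, and the rest are large subunit proteins. Their part in these medians was not tested. Summed over its members, the large subunit (51 members) had 2.54 to 2.84 times the FPKM of the small subunit (26 members) in each library. This ratio follows in part from the larger number of members. It also leaves out 5 mitoribosomal proteins without an MRP symbol, among them PTCD3 of the small subunit, so it is not a ratio of whole subunits.

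The 3 paralogues of the MRPS18 family, which sit in different places in the ribosome, differed in level. MRPS18B, of the small subunit, averaged 57.5 ± 14.5 FPKM. MRPS18A, which despite its symbol is a large subunit protein, averaged 24.1 ± 3.72 FPKM, and MRPS18C, the counterpart of bacterial S18, averaged 3.91 ± 0.707 FPKM (SD, n = 8 libraries each). Their ranges over the libraries did not overlap. MRPS30, also a large subunit protein, averaged 22.7 ± 4.06 FPKM. MRPL58, a peptidyl-tRNA hydrolase that became a ribosomal protein, averaged 26.2 ± 4.77 FPKM, and MRPL12, the stalk protein that binds translation factors, 5.19 ± 1.35 FPKM. MRPS36, now known as a subunit of the α-ketoglutarate dehydrogenase complex and not of the ribosome, averaged 15.7 ± 2.62 FPKM.

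Members varied little across the libraries. The range of log2(FPKM + 1) over the 8 libraries had a median of 0.56 among members and 0.87 among all 13899 genes tested, and it reached 1 in 4 members (5.13%) against 39.2% of all genes. Among genes with a mean of 10 FPKM or more, where counting error is smaller, it reached 1 in 1 of 65 members (1.54%) against 30.03% of 7932 protein-coding genes. Because each library is another condition, this range mixes treatment, cell type and library spread. The widest members were MRPS18B (range 1.09), MRPL50 (1.06) and MRPL12 (1.04). The narrowest were MRPL1 (0.23), with 16.0 to 19.0 FPKM, MRPS14 (0.31), with 18.7 to 23.5 FPKM, and MRPS11 (0.33), with 16.6 to 21.1 FPKM.

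On the deposited scale the summed level of the 78 members ran from 2590 to 3172 FPKM. In SLC29A2 cells the sum was 3028 FPKM with both drugs, 2797 with sorafenib, 2891 with dipyridamole and 2961 with the control treatment. In control cells it was 2975, 2980, 2590 and 3172 FPKM in the same order of treatments. The lowest library was that of control cells given dipyridamole and the highest that of control cells given the control treatment. After division by size factors the lowest was that of control cells given both drugs (2465), followed by control cells given dipyridamole (2510). Control cells given the control treatment stayed highest (3344). The 13 protein-coding transcripts of the mitochondrial genome, whose messages this ribosome translates, spanned a wider range. They summed to 20509, 33011, 38431 and 47166 FPKM in SLC29A2 cells and to 17844, 29300, 56486 and 37647 FPKM in control cells, again in the order both drugs, sorafenib, dipyridamole, control treatment. In both cell types the sum was lower with both drugs than with any other treatment.

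**Figure D2:**
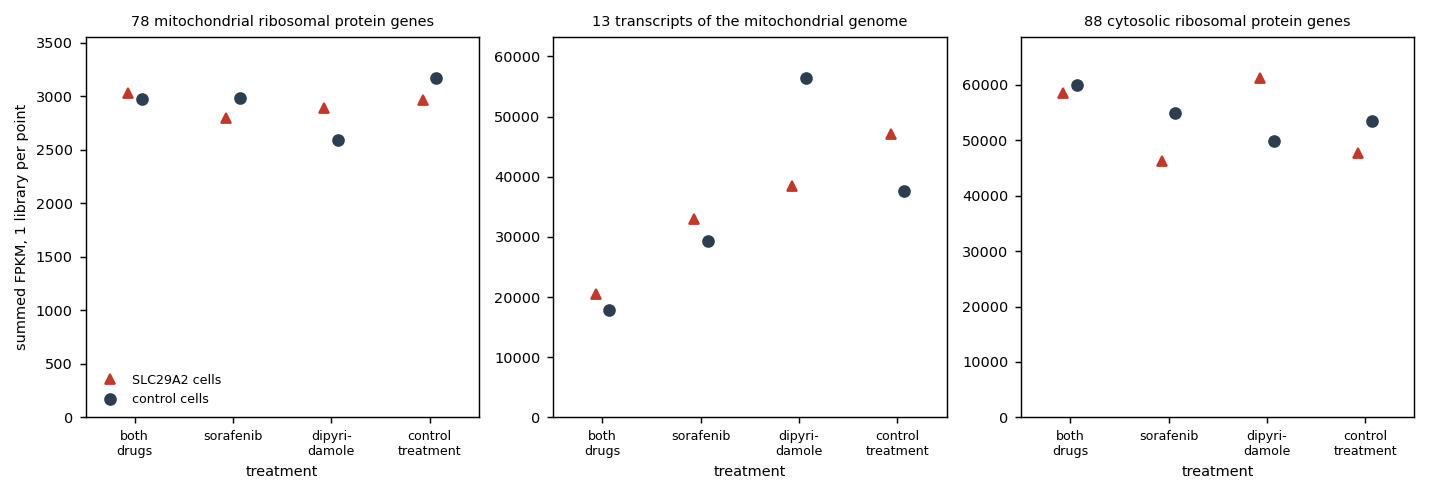
Summed FPKM of the 78 mitochondrial ribosomal protein genes, of the 13 mitochondrial genome transcripts and of 88 cytosolic ribosomal protein genes, with 1 point per library, by treatment and cell type. The member sums lie between 2590 and 3172 FPKM while the mitochondrial transcripts run from 17844 to 56486 FPKM.

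The comparison of sorafenib with no sorafenib asked what the kinase inhibitor changed across both cell types and both dipyridamole states. Of the 78 members, MRPS10 rose and none fell. The limma model on log2(FPKM + 1) called 5.94% of all genes tested higher and 2.17% lower at an adjusted p under 0.05, against 1 member higher (1.28%) and 0 lower. At an unadjusted p under 0.05 there were 8 members (10.3%), against 26.6% of all genes tested. Limma-voom on recovered reads also called 1 member higher and 0 lower, with no share of all genes given for that fit. The median effect was -0.01 over the members and 0.09 over all genes. Dividing the libraries by size factors moved the median of all genes to -0.02, a shift of over 0.1, and that of the members to -0.13, and then called no member. With that scaling 3.18% of all genes tested were called higher and 3.504% lower. The middle 50% of member effects lay between -0.13 and 0.10. In bulk RNA a change in cell composition and a change in RNA per cell cannot be told apart.

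MRPS10 (ENSG00000048544, chr6:42206801-42217865, minus strand, GRCh38) encodes the counterpart of bacterial S10 in the head of the small subunit. With sorafenib it had 35.8 and 22.2 FPKM in SLC29A2 cells with and without dipyridamole, and 34.9 and 26.6 FPKM in control cells with and without dipyridamole. Without sorafenib it had 22.4 and 18.5 FPKM in SLC29A2 cells and 23.2 and 19.3 FPKM in control cells, again with and without dipyridamole. Within each of the 4 pairs the sorafenib library was higher, and the libraries given both drugs were the highest in either cell type. The groups overlapped, as SLC29A2 cells given sorafenib (22.2 FPKM) lay under the 2 libraries given dipyridamole alone (22.4 and 23.2 FPKM). The effect was 0.48 ± 0.11 (log2, SE; limma adjusted p = 0.034). It kept the call in 1 of 8 fits with a library left out (without SLC29A2 cells given sorafenib), with adjusted p from 0.0341 to 0.1135 over the 8, and lost it with size factors (0.36, adjusted p = 0.0904).

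Other members that moved the same way in all 4 pairs did not pass. MRPS17 had an effect of -0.46 ± 0.16 (limma adjusted p = 0.11), MRPL50 -0.38 ± 0.17 (0.183), MRPL53 -0.37 ± 0.14 (0.132) and MRPS25 -0.35 ± 0.20 (0.299). MRPS17 and MRPL53 belong to the 8 members with shared coding bases, and MRPS17, MRPL50 and MRPL53 averaged under 6 FPKM. The 4 libraries with sorafenib lay wholly above the 4 without in MRPL40 and wholly below in MRPL50 and MRPS17, which is 3 of 78 members against 7.98% of all genes tested.

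The comparison of dipyridamole with no dipyridamole gave more calls, in both directions. MRPS33, MRPS10 and MRPS30 rose and 7 members fell, of which 5 belong to the large subunit (MRPL16, MRPL32, MRPL13, MRPL39 and MRPL51) and 2 to the small one (MRPS12 and MRPS27). The model called 17.5% of all genes tested higher and 12.6% lower, against 3 members higher (3.85%) and 7 lower (8.97%), so both member shares lay under those of the background. The median effect was -0.13 over the members and 0.07 over all genes. A negative effect was found in 52 of 78 members and in 6021 of 13899 genes tested. With size factors 1 member was called higher and 11 lower, and the medians were -0.22 over the members and -0.01 over all genes, of which 13.4% were then called higher and 16.5% lower. Without both dipyridamole libraries of control cells 2 members were called higher (2.56%) and 2 lower (2.56%), against 10.9% and 11.9% of all genes tested. The medians were then -0.06 over the members and -0.0007 over all genes. By role, over all 8 libraries, the medians were -0.18 for large subunit proteins with a bacterial counterpart (22 of 30 negative) and -0.02 for those without (12 of 21). They were -0.08 for small subunit proteins with one (10 of 16) and -0.19 for those without (7 of 10). The effect in SLC29A2 cells minus that in control cells had class medians of 0.25, 0.03, 0.01 and -0.03, in that order. Over all genes tested the median of this difference was -0.14.

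The plot of drug effects sets both comparisons side by side. They share all 8 libraries. MRPS10 was the member past the threshold for both drugs.

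**Figure D3:**
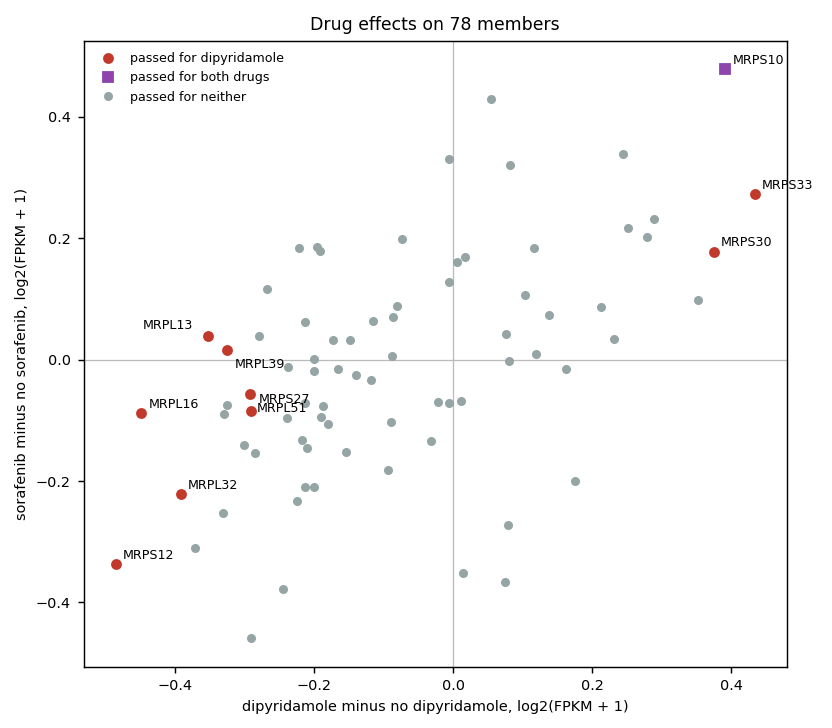
Effect of dipyridamole (horizontal) and of sorafenib (vertical) on each of the 78 members, as differences of log2(FPKM + 1), drug minus no drug. Named points passed the limma threshold for dipyridamole, 3 to the right of 0 and 7 to the left, and the purple square, MRPS10, passed for both drugs.

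Promoters of the 3 members that rose and of the 2 that fell most with dipyridamole are shown so that members moving in opposite directions can be compared. Each stretch covers 250 bases before and 50 after the RefSeq gene start (GRCh38.p14, first listed start of the gene), 5′ to 3′ on the gene's strand. Capitals mark exact matches, on either strand, to the core motifs of NRF1 (GCGCANGCG), of the ETS factor GABP (CCGGAAG) and of YY1 (AAGATGGCG), factors known at promoters of nuclear genes for mitochondrial proteins. The positions are chr6:42217812-42218111, minus strand, for MRPS10; chr5:44808697-44808996, plus strand, for MRPS30; chr7:141014903-141015202, minus strand, for MRPS33; chr19:38930694-38930993, plus strand, for MRPS12; and chr11:59810729-59811028, minus strand, for MRPL16.
MRPS10: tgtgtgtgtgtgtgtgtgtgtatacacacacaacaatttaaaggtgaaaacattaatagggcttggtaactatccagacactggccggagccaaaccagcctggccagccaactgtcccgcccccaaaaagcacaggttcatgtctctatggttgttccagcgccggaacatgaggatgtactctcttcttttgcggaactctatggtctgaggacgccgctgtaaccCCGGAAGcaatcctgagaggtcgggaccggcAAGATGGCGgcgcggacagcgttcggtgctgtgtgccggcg
MRPS30: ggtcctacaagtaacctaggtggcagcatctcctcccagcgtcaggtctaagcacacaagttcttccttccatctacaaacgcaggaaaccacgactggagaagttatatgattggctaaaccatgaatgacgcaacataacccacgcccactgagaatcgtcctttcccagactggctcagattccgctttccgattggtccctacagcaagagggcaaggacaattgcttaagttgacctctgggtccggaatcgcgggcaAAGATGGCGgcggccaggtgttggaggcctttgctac
MRPS33: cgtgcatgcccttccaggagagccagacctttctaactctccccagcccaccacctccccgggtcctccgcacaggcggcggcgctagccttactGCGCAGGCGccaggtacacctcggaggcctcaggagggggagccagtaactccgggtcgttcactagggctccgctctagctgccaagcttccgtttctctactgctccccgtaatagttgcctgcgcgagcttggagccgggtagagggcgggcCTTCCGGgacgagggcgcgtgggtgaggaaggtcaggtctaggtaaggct
MRPS12: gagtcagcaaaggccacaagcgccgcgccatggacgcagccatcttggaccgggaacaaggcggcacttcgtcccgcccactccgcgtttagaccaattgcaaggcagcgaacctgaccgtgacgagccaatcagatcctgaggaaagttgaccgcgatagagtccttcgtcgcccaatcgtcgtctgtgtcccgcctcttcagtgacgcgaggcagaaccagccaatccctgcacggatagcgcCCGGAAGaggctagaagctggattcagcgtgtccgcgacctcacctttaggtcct
MRPL16: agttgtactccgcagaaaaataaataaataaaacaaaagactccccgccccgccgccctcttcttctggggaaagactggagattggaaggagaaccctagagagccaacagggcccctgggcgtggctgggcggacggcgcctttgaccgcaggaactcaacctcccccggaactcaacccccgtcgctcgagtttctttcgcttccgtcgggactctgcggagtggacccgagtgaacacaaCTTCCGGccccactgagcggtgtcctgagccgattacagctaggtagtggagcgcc

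All 5 held at least 1 of the motifs. The GABP core stood in MRPS10 and MRPS33, which rose, and in MRPS12 and MRPL16, which fell. The YY1 core stood after the start site of MRPS10 and MRPS30, and the NRF1 core stood in MRPS33. Over the 69 members found in the RefSeq table the GABP core occurred in 42.0% of promoters, the YY1 core in 18.8% and the NRF1 core in 18.8%. Over the 9491 protein-coding genes tested with a promoter in the table, members included, the shares were 20.0%, 4.21% and 15.4%, and over all 27305 genes with a listed promoter they were 10.7%, 1.85% and 8.05%. At least 1 of the 3 stood in 65.2% of member promoters and in 34.5% of those of protein-coding genes tested. Of the 14 YY1 matches in members outside chromosome 8, 10 began after the start site and 12 read along the gene. A match is a description of the letters and not a binding site.

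MRPS12 (ENSG00000128626, chr19:38930548-38933162, plus strand, GRCh38), the counterpart of the bacterial decoding protein S12, showed the largest fall. In libraries with dipyridamole it had 26.8 and 35.6 FPKM in SLC29A2 cells with and without sorafenib, and 25.5 and 28.2 FPKM in control cells with and without sorafenib. Without dipyridamole it had 34.4 and 45.4 FPKM in SLC29A2 cells and 36.1 and 48.7 FPKM in control cells, in the same order. Every pair was lower with dipyridamole, and the groups overlapped only through SLC29A2 cells given dipyridamole (35.6 FPKM) and SLC29A2 cells given sorafenib (34.4 FPKM). The effect was -0.49 ± 0.11 (log2, SE; limma adjusted p = 0.0102). It held in all 8 fits with a library left out, with adjusted p from 0.0182 to 0.0396. Without both dipyridamole libraries of control cells it was -0.35 (adjusted p = 0.0639). MRPS12 overlaps SARS2 on the opposite strand over 16.3% of its exon bases, and SARS2 averaged 1.22 FPKM.

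MRPL16 (ENSG00000166902, chr11:59806135-59810872, minus strand), whose bacterial counterpart lies near the peptidyl transferase centre, had 22.9 and 30.8 FPKM with dipyridamole in SLC29A2 cells with and without sorafenib and 30.1 and 26.5 FPKM in control cells. Without dipyridamole it had 34.4 and 37.4 FPKM in SLC29A2 cells and 39.8 FPKM in both control cell libraries. The groups did not overlap. The effect was -0.45 ± 0.12 (limma adjusted p = 0.0188) and kept the call in 5 of 8 fits with a library left out. The call was lost without control cells given sorafenib (-0.42, adjusted p = 0.0686), without control cells given dipyridamole (-0.38, 0.0574) and without SLC29A2 cells given the control treatment (-0.45, 0.053).

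MRPL32 carries a leader that the m-AAA protease is known, in yeast and mouse, to remove before assembly. With dipyridamole it had 20.8 and 27.2 FPKM in SLC29A2 cells with and without sorafenib and 27.5 and 29.8 FPKM in control cells, against 35.0 and 39.0 FPKM in SLC29A2 cells and 29.5 and 35.3 FPKM in control cells without dipyridamole. The groups touched in control cells, where the dipyridamole library (29.8 FPKM) lay just above the sorafenib library (29.5 FPKM). The effect was -0.39 ± 0.12 (limma adjusted p = 0.039), and it passed in 1 of 8 fits with a library left out (without control cells given both drugs, adjusted p = 0.0353). Without both dipyridamole libraries of control cells the effect was -0.61 (adjusted p = 0.0202).

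MRPL13, MRPL39, MRPL51 and MRPS27 fell by less, and in each the groups did not overlap. MRPL13 had 21.7 to 25.05 FPKM with dipyridamole and 28.2 to 32.0 FPKM without (effect -0.35 ± 0.10, limma adjusted p = 0.0307). MRPL39 had 18.3 to 20.5 FPKM with dipyridamole and 23.6 to 25.3 FPKM without (-0.32 ± 0.10, 0.0366). MRPS27, a pentatricopeptide repeat protein of the small subunit, had 53.3 to 58.7 FPKM with dipyridamole and 63.8 to 72.7 FPKM without (-0.29 ± 0.09, 0.0415). All 4 libraries of each gene with the drug sat below all 4 without it, while the adjusted p lay close to the threshold. With a library left out, MRPL13 passed in 2 of 8 fits (without control cells given sorafenib and without SLC29A2 cells given both drugs, adjusted p from 0.0437 to 0.106 over the 8), and MRPL39 and MRPS27 in none, with adjusted p from 0.0576 to 0.114 and from 0.0562 to 0.1456.

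MRPL51 had 109 to 121 FPKM with dipyridamole and 134 to 152 FPKM without (effect -0.29 ± 0.10, limma adjusted p = 0.0493), and it too passed in none of 8 fits with a library left out (adjusted p from 0.0752 to 0.1485). MRPL51 shares 31.3% of its exon bases with the condensin gene NCAPD2 on the opposite strand. NCAPD2 averaged 146 FPKM and had an effect of -1.50 ± 0.13 with dipyridamole (adjusted p = 0.0001). No strand information is stated for these libraries, so reads of the 2 genes over that stretch cannot be told apart, and the part of NCAPD2 in the fall of MRPL51 was not tested.

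MRPS33 (ENSG00000090263, chr7:141002610-141015228, minus strand), a small subunit protein without a bacterial counterpart, rose most. It had 15.4 and 13.5 FPKM with dipyridamole in SLC29A2 cells with and without sorafenib and 19.7 and 13.2 FPKM in control cells, against 12.4 and 9.57 FPKM in SLC29A2 cells and 11.3 and 11.1 FPKM in control cells without dipyridamole. The groups did not overlap, and control cells given both drugs were highest. The effect was 0.43 ± 0.12 (limma adjusted p = 0.0276). It passed in 3 of 8 fits with a library left out (without control cells given the control treatment, control cells given dipyridamole or SLC29A2 cells given both drugs, adjusted p from 0.0376 to 0.106 over the 8), and it was the 1 rise that kept its call with size factors (0.34, adjusted p = 0.0439).

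MRPS30 (ENSG00000112996, chr5:44808925-44820428, plus strand) had 27.7 and 23.3 FPKM with dipyridamole in SLC29A2 cells with and without sorafenib and 29.7 and 22.4 FPKM in control cells. Without dipyridamole its 4 libraries lay between 18.9 and 20.0 FPKM. The groups did not overlap, and the libraries given both drugs were the highest. The effect was 0.37 ± 0.11 (limma adjusted p = 0.028). It passed in 2 of 8 fits with a library left out (without control cells given the control treatment or dipyridamole, adjusted p from 0.0319 to 0.102 over the 8) and not with size factors (0.28, 0.0666).

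MRPS10, whose values are given above, had an effect of 0.39 ± 0.11 with dipyridamole (limma adjusted p = 0.0257), with the dipyridamole library higher in all 4 pairs and overlapping groups. It passed in 4 of 8 fits with a library left out. The call was lost without control cells given sorafenib (0.40, adjusted p = 0.0692), control cells given both drugs (0.39, 0.0676), SLC29A2 cells given sorafenib (0.31, 0.106) or SLC29A2 cells given both drugs (0.33, 0.0685), and with size factors (0.30, 0.078).

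In all, the 4 dipyridamole libraries lay wholly above the 4 others in 3 members (MRPS30, MRPS33 and MRPS5) and wholly below in 10, against 24.8% of all genes tested in either direction. The 10 were MRPL13, MRPL15, MRPL16, MRPL19, MRPL35, MRPL39, MRPL42, MRPL51, MRPS11 and MRPS27. Of these, MRPL15 (adjusted p = 0.0509), MRPL35 (0.0525), MRPL42 (0.0641), MRPL19 (0.0878) and MRPS11 (0.168) did not pass the limma test.

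**Figure D4:**
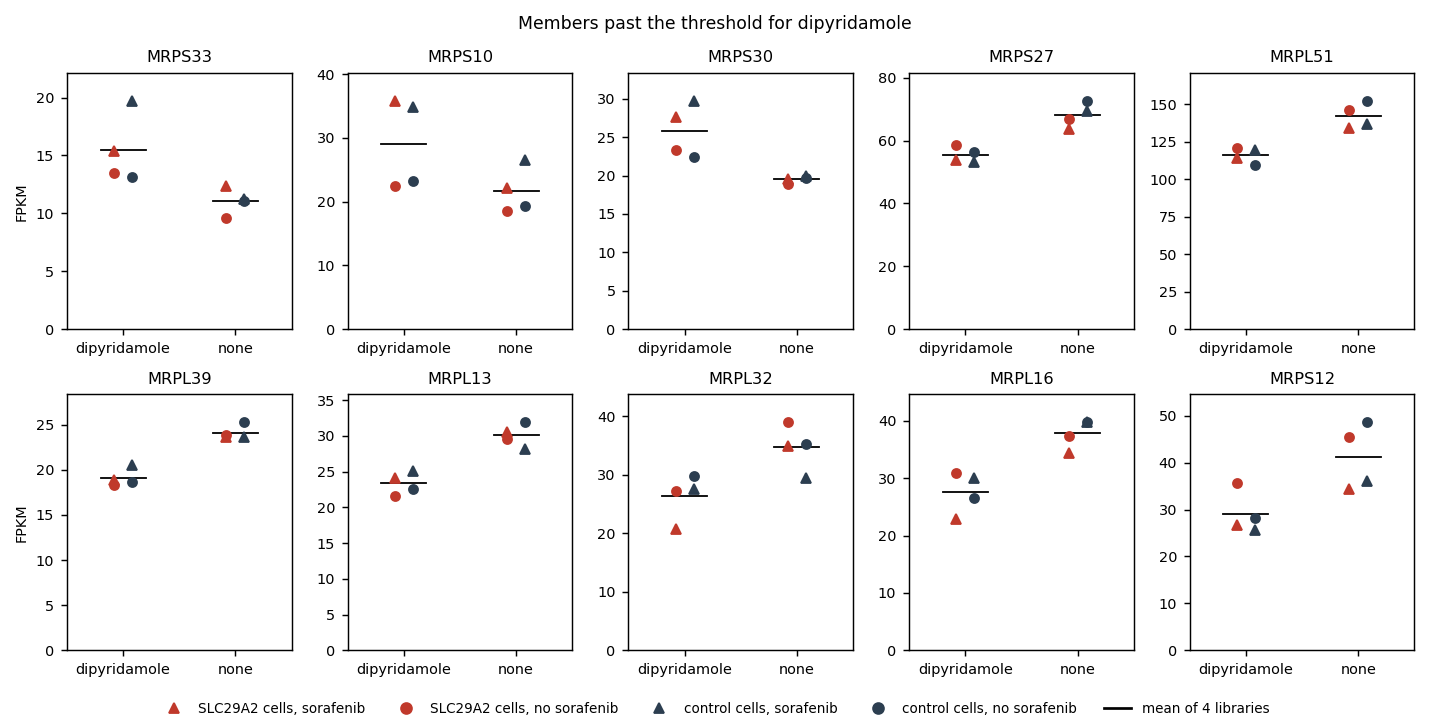
FPKM of the 10 members past the threshold for dipyridamole, with 1 point per library, dipyridamole on the left of each panel and no dipyridamole on the right, and a bar at the mean of 4 libraries. MRPS33, MRPS10 and MRPS30 lie higher with the drug and the other 7 lie lower, with the groups overlapping in MRPS10, MRPS12 and MRPL32.

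SLC29A2 cells were compared with control cells to ask what the transporter changed. No member was called, and limma-voom called 0 as well, with no share of all genes given for that fit. At an unadjusted p under 0.05 there were 0 members, against 3.93% of all genes tested. The 1 gene called among all tested, 0.00719%, was SLC29A2 itself. The median effect was -0.03 over the members and -0.06 over all genes, and with size factors 0.06 and 0.02. The largest effects with the same sign in all 4 pairs were -0.25 ± 0.15 for MRPS36, -0.20 ± 0.11 for MRPL33, -0.15 ± 0.11 for MRPL44, 0.06 ± 0.11 for MRPL40 and -0.06 ± 0.10 for MRPL39, with limma adjusted p of 0.965 to 0.974. In 0 members did the 4 SLC29A2 libraries lie wholly above or below the 4 control libraries, against 0.95% of all genes. A p that misses the threshold does not show that levels were equal.

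Interactions ask whether 1 drug acted differently with the other drug or in the other cell type. Of all genes tested, limma called 0.0863% for the interaction of sorafenib with dipyridamole, 0% for cell type with sorafenib and 0% for cell type with dipyridamole. No member passed in any of them, with 4 (5.13%), 0 and 6 (7.69%) members at an unadjusted p under 0.05, against 13.2%, 0.72% and 19.8% of all genes tested. The members with the smallest p in either direction are given as measurements.

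MRPS18B had 76.4, 52.5, 37.3 and 56.5 FPKM in SLC29A2 cells given both drugs, sorafenib, dipyridamole and the control treatment. In control cells it had 80.7, 55.4, 45.9 and 55.3 FPKM in the same order. In both cell types the library with both drugs was the highest and that with dipyridamole alone the lowest. The interaction was 0.96 ± 0.18 (limma adjusted p = 0.169).

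MRPL49, of the large subunit, had 39.0, 27.5, 28.4 and 34.5 FPKM in SLC29A2 cells and 35.0, 28.0, 21.3 and 39.1 FPKM in control cells, in the same order of treatments. Either drug alone gave lower values than both drugs and than the control treatment, in both cell types. The interaction was 0.96 ± 0.23 (limma adjusted p = 0.218). MRPL49 shares 11.6% of its exon bases with SYVN1, a gene of the opposite strand with 75.3 FPKM. SYVN1 had an effect of 0.54 ± 0.15 with dipyridamole (limma adjusted p = 0.0279), and its part in the values of MRPL49 was not tested. MRPS36 had an interaction of the other sign, -0.62 ± 0.19 (adjusted p = 0.275), as did MRPS21 (-0.38 ± 0.30, 0.637).

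MRPS25, a small subunit protein, had 15.2, 23.9, 22.5 and 29.9 FPKM in SLC29A2 cells and 26.0, 17.1, 30.8 and 21.6 FPKM in control cells, in the order both drugs, sorafenib, dipyridamole, control treatment. Dipyridamole libraries were lower than their partners in SLC29A2 cells and higher in control cells. The interaction of cell type with dipyridamole was -1.04 ± 0.18 (limma adjusted p = 0.106). MRPS25 shares 22.2% of its exon bases with NR2C2 on the opposite strand, which averaged 27.2 FPKM. Values of the other members named for this interaction were 0.65 ± 0.17 for MRPL4 (0.136), 0.49 ± 0.15 for MRPL28 (0.158) and -0.45 ± 0.17 for MRPL32 (0.214). For cell type with sorafenib they were -0.67 ± 0.31 for MRPL12, -0.35 ± 0.24 for MRPL16, 0.24 ± 0.24 for MRPL15 and 0.28 ± 0.31 for MRPS18A, all with adjusted p = 1.

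**Figure D5:**
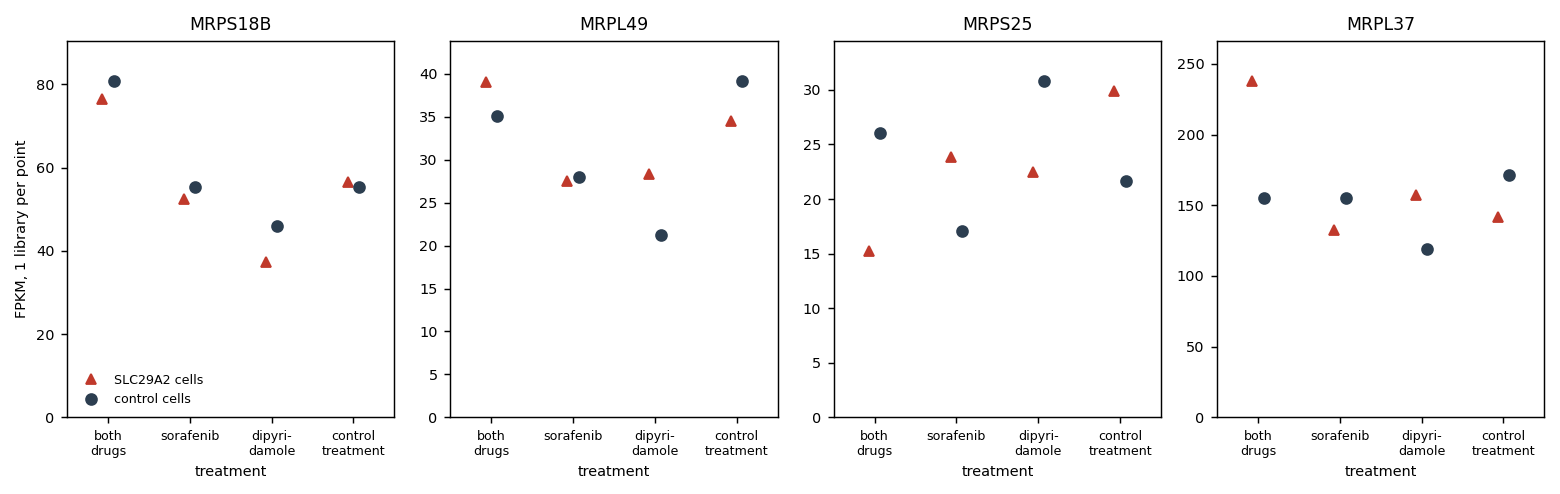
FPKM of MRPS18B, MRPL49, MRPS25 and MRPL37 by treatment, with 1 point per library, red triangles for SLC29A2 cells and dark circles for control cells. MRPS18B is highest with both drugs in either cell type (76.4 and 80.7 FPKM), and MRPS25 is ordered differently in the 2 cell types.

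Members did not all follow the family's mean. The Pearson correlation of a member with the mean of the standardised members over the 8 libraries, which holds the member itself, had a median of 0.44, was above 0.5 in 33 members and below 0 in 14. The mean standardised level was highest in control cells given the control treatment (0.60) and lowest in control cells given dipyridamole (-0.62). Outside the family the 5 genes most like this mean were TBC1D14 (r = 0.97), TTC38 (0.95), DBI (0.94), NAA38 (0.94) and MVK (0.93). These are descriptions over 8 libraries that share their conditions, picked from all other genes tested.

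Genes that act with the mitochondrial ribosome were described from lists (means ± SD over 4 libraries each). The 5 mitoribosomal proteins without an MRP symbol included PTCD3, a pentatricopeptide protein of the small subunit, which fell with dipyridamole (55.5 ± 13.9 FPKM with the drug and 82.3 ± 6.62 FPKM without; effect -0.59 ± 0.14, limma adjusted p = 0.0149). The other 4 did not pass for any factor, among them DAP3 at 0.04 ± 0.09 with dipyridamole. The 1 fall was 20% of this list, against 12.6% of all genes tested. Of 26 genes of mitoribosome assembly and ribosomal RNA modification, 1 rose with dipyridamole (RPUSD3, a pseudouridine synthase homologue, 0.40 ± 0.13, limma adjusted p = 0.0475) and 1 fell (MPV17L2, an assembly factor of the inner membrane, -0.58 ± 0.17, 0.028). RPUSD3 did not pass with size factors (adjusted p = 0.117), and neither RPUSD3 (0.0673) nor MPV17L2 (0.0529) passed without both dipyridamole libraries of control cells. The list median was -0.01, and none passed for sorafenib. The dipyridamole calls were 3.85% of the list in either direction, against 17.5% of all genes tested higher and 12.6% lower.

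Translation factors gave calls for both drugs. Of 16 tested, 2 rose with sorafenib, the initiation factors MTIF2 (49.9 ± 12.2 FPKM with the drug and 32.0 ± 1.52 FPKM without, effect 0.60 ± 0.14, limma adjusted p = 0.0399) and MTIF3 (17.4 ± 6.33 FPKM with it and 10.9 ± 2.46 FPKM without, 0.59 ± 0.15, 0.0451). Neither call held with size factors (adjusted p = 0.0712 for MTIF2 and 0.055 for MTIF3) or without both dipyridamole libraries of control cells (0.15 for MTIF2 and 0.0996 for MTIF3). With dipyridamole MTIF3 rose (0.59 ± 0.15, 0.0167) and 3 elongation factors fell. These were TUFM, which brings aminoacyl-tRNA to the ribosome (150 ± 15.2 FPKM with the drug and 214 ± 17.4 FPKM without, -0.51 ± 0.10, 0.0054), TSFM, its exchange factor (9.85 ± 0.891 FPKM with and 14.7 ± 1.64 FPKM without, -0.53 ± 0.11, 0.0088), and GFM1, the translocase (16.9 ± 1.39 FPKM with and 21.6 ± 1.04 FPKM without, -0.34 ± 0.11, 0.0438). All 3 falls passed with size factors as well, as did the rise of MTIF3. TUFM and GFM1 passed without both dipyridamole libraries of control cells, but TSFM (adjusted p = 0.055) and the dipyridamole rise of MTIF3 (0.0859) did not. The list median was -0.07 with dipyridamole. That drug called 6.25% of the list higher and 18.75% lower, against 17.5% and 12.6% of all genes tested. Sorafenib called 12.5% of the list higher and 0% lower, against 5.94% and 2.17% of all genes tested.

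Among 13 tested regulators of mitochondrial transcription and biogenesis, TFAM, which packages mitochondrial DNA, fell with dipyridamole (23.9 ± 0.907 FPKM with the drug and 36.1 ± 7.83 FPKM without, -0.55 ± 0.14, limma adjusted p = 0.0167) and none rose. Its effect did not pass without both dipyridamole libraries of control cells (-0.65, adjusted p = 0.0543). The 1 fall was 7.69% of this list, against 12.6% of all genes tested. With size factors 2 of the list were called lower with dipyridamole (15.4%), TFAM among them, against 16.5% of all genes tested. For sorafenib 1 was then called lower (7.69%), against 3.504% of all genes tested, and none on the deposited scale. NRF1 (-0.08 ± 0.13) and GABPA (0.13 ± 0.12), among the factors whose core motifs were counted above, did not pass with dipyridamole. No effect is given for YY1, and RNA levels do not measure the activity of these factors. Of 13 mitochondrial chaperones and proteases, 3 rose with dipyridamole (23.1%) and 1 fell (7.69%), against 17.5% and 12.6% of all genes tested. The protease LONP1 had 295 ± 104 FPKM with the drug and 134 ± 21.8 FPKM without (1.08 ± 0.16, 0.0014), HTRA2 an effect of 0.62 ± 0.15 (0.0163) and the chaperone HSPA9 0.46 ± 0.11 (0.0125), while HSPD1 fell (-0.45 ± 0.13, 0.031). With size factors LONP1 and HSPD1 kept their calls, and HTRA2 (adjusted p = 0.0516) and HSPA9 (0.0817) did not. Without both dipyridamole libraries of control cells LONP1, HTRA2 (0.97, adjusted p = 0.0088) and HSPA9 (0.0263) passed and HSPD1 did not (0.0838).

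The transcripts that the mitochondrial ribosome translates moved with sorafenib. Of the 13 protein-coding transcripts of the mitochondrial genome, 7 fell (53.8%) and 0 rose, against 2.17% and 5.94% of all genes tested. The list median was -0.87, beside -0.01 for the 78 members. MT-ND3 had the largest change (1414 ± 685 FPKM with sorafenib and 3130 ± 994 FPKM without, -1.21 ± 0.30, limma adjusted p = 0.0412), and MT-CO2 had 3108 ± 1179 FPKM with sorafenib and 6536 ± 1274 FPKM without (-1.13 ± 0.26, 0.034). All 7 also passed with size factors, but 2 of the 13 (MT-ND2 and MT-CYB) did without both dipyridamole libraries of control cells. None passed for dipyridamole, though 6 (46.2%) fell without those libraries, against 11.9% of all genes tested. The 84 cytosolic ribosomal proteins tested gave 1 call for dipyridamole (RPL26L1, -0.42 ± 0.10, 0.0119) and none for sorafenib, with medians of 0.12 and 0.00. That call was 1.19% of the list, against 12.6% of all genes tested called lower. Without both dipyridamole libraries of control cells, RPL26L1 did not pass (adjusted p = 0.0814) and 17 of the 84 (20.2%) rose with dipyridamole, against 10.9% of all genes tested.

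In the genome the members lie on 21 chromosomes, with at most 8 on any 1 (chromosomes 1, 2 and 17). Of the 78, 29 (37.2%) had the start of another protein-coding gene on the opposite strand within 1000 bases, against 18.0% of the 11637 protein-coding genes tested. MRPL46 and MRPS11 form such a pair with each other, their starts 34 bases apart, at 1.89 and 18.9 FPKM. MRPL46 belongs to the members with shared coding bases (64.0%), so its level, and this difference, are uncertain. Other partners included NDUFS6, a complex I subunit, whose start lies 34 bases from that of MRPL36. Of 75 pseudogenes named for members, 18 were above 0 FPKM in any library and 2 averaged at least 1 FPKM, MRPL45P2 (6.82 FPKM) and MRPS31P5 (1.89 FPKM). Reads of MRPL45 and MRPS31 could in part be split with these copies.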

How the data were processed

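RNA-seq tables of 8 SK-Hep1 libraries were used, 1 per condition. The deposited values are FPKM, made by the authors. TopHat2 2.0, HTSeq 0.6.1 and edgeR appear in the submitters' processing notes, with GRCh38.p12 as build and no roles given. RNA was poly(A)-selected, per the labels' protocols, which do not state strand. Of 58310 lines, 8 held no gene identifier. Symbols, exons and lengths came from GENCODE 29 (GRCh38), which matched 58039 of 58302 genes; promoters came from RefSeq (GRCh38.p14), which held 69 of the 78 members. FPKM times mean transcript length gave whole reads for 91.18% of values above 0 (tolerance 0.01 read). Recovered read counts served for reads per gene and for limma-voom, and library totals came from the FPKM step of 1 read.

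The 13899 genes averaging 1 FPKM or more were tested as log2(FPKM + 1) with limma 3.58.1 in R 4.3.3, with a mean-variance trend, two-sided, with Benjamini-Hochberg adjustment over all genes and a threshold of 0.05. This scale understates changes of low genes. The model held cell type, sorafenib and dipyridamole; each interaction was added singly. The error term therefore includes interactions of the factors. The same script was checked on simulated data. Members, classes and lists were chosen with earlier results of these data known. Named were all members past the threshold, the 5 largest changes with 1 sign in all pairs where fewer than 5 passed, for interactions the 2 smallest p in either direction, extremes of level and range, and called genes of each list; MRPS5, MRPL15, MRPL19, MRPL35, MRPL42, MRPL30 and the members sharing coding bases were named after their values were seen.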

Additional observations from a re-analysis of the deposited data

Results flagged for a closer look

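In 4 members a drug effect ran in opposite directions in all pairs of libraries, each pair at least 0.25 apart on the log2(FPKM + 1) scale. For MRPS25 the effect of dipyridamole was -0.40 and -0.62 in SLC29A2 cells and 0.49 and 0.58 in control cells, a difference of -1.04. For MRPS18B the effect of dipyridamole was 0.53 in either cell type with sorafenib, against -0.26 and -0.59 without it, a difference of 0.96. For MRPL49 the effect of dipyridamole was 0.31 and 0.49 with sorafenib and -0.85 and -0.27 without it, and that of sorafenib 0.70 and 0.45 with dipyridamole and -0.47 and -0.32 without it, the same difference of 0.96 seen from both sides. For MRPL30 the effect of sorafenib was 0.25 and 0.48 with dipyridamole and -0.28 and -0.29 without it, a difference of 0.65. None of these interactions passed in limma, with adjusted p of 0.106 for MRPS25, 0.169 for MRPS18B, 0.218 for MRPL49 and 0.312 for MRPL30. Each single effect within a level rests on 2 pairs. The share of all genes tested that meets this rule is not given, so the 4 members are not set against a background. At an unadjusted p under 0.05 in limma, 5.13% of members had an interaction of the 2 drugs, against 13.2% of all genes tested. For cell type with dipyridamole the shares were 7.69% and 19.8%.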

How the results depend on the processing

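None of the 11 member effects that passed reversed its direction under any of 15 alternatives. That is a weak check, since all the alternatives reuse these 8 libraries. Fits without a filter, with a minimum mean of 5 FPKM or with all pairwise interactions return the same effect and could not reverse it. For sorafenib, members called higher were 0 without a filter, with size factors and without both dipyridamole libraries of control cells, and 0 to 1 with a library left out. With all pairwise interactions in the model, which leaves 1 residual degree of freedom, 8 were called higher and 5 lower. For dipyridamole, 1 was called higher and 3 lower without a filter, 1 and 11 with size factors, and 10 and 23 with all pairwise interactions. With size factors the shares of all genes tested were 13.4% higher and 16.5% lower. With a library left out 0 to 4 members were called higher and 1 to 5 lower. Without both dipyridamole libraries of control cells 2 were called higher and 2 lower (2.56% each), against 10.9% and 11.9% of all genes tested. For the fits without a filter, with all pairwise interactions or with a library left out, shares of all genes are not given. Those member counts, for either drug, are therefore not set against a background. Of the 11 calls, 8 were kept with size factors, 9 with voom on recovered reads and 4 without a filter. Leaving out any 1 library kept between 2 and 5. Without control cells given both drugs, the library that stood apart, 3 were kept. Fewer, 2, were kept without SLC29A2 cells given the control treatment and without control cells given sorafenib. Without both dipyridamole libraries of control cells 1 was kept. With size factors the median member effect was -0.13 for sorafenib and 0.056 for cell type, opposite in sign to the deposited scaling for cell type (-0.03). The causes were not tested. No paired analysis was possible because, with 1 library a condition, replicate numbers name no further sample to block on. The additive model itself compares the 4 library pairs of each factor. Depth limits MRPS24, with 10 to 23 reads per library, most.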
